A study of Homo sapiens with 192 samples.

Results

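Gene deserts were examined in plate-based single-nucleus ATAC-seq (snATAC-seq) of HAP1 cells. A feature was counted as a desert feature when it lay on an autosome and its centre was more than 500 kb from the start of every protein-coding gene of GENCODE 44 on hg38. This rule used positions alone, and 9211 of the 76895 autosomal features met it, among 80971 features in all. HAP1 is an adherent, near-haploid human cell line derived from a chronic myeloid leukaemia line. HAP1 cells, for which no treatment is named, carrying the CASB barcode (sample barcodes held on the nucleus by concanavalin A) were pooled with unlabelled cells, tagmented together and sorted as single nuclei into 2 plates of 96 wells. Which of the nuclei carried the barcode is not given in the labels, so the plates were the only groups. No separate cultures were named, each plate counted as 1 sample, and no test across nuclei was made.

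In ATAC-seq the Tn5 transposase inserts sequencing adapters where DNA is not wrapped tightly in nucleosomes, and a feature is a place where such insertions pile up. Gene deserts are long stretches without a protein-coding gene start. Some are known to hold enhancers that act over long distances on developmental genes, and many also hold noncoding RNA genes, the far ends of very long genes, and satellite or other repeated DNA next to centromeres. Each feature reached 500 bp to either side of a peak summit, and a nucleus was called open at a feature when it had at least 1 read pair there. The totals per nucleus were 30 to 12449 read pairs in plate 1 and 20 to 15351 in plate 2, so an unseen feature in a nucleus may be a matter of depth. Of 5 genes typical of adherent cells, only the start of VIM held a feature, in 11 nuclei, and none of 5 blood gene starts did, which is a weak check of the cell line.

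The 10 desert features seen in most nuclei are shown first by their sequence, in that order, since 3 of them stand out by base composition or by what they match, while the others show the AT-rich sequence typical of the set. Each line gives the centre of the feature and 75 bases of hg38 to either side of it, plus strand, 5′ to 3′. Capitals mark matches on either strand to the motifs searched: TGANTCA for AP-1 factors, ACATTCC for TEAD factors, AGATAA for GATA factors, ATGCAAAT (the octamer) for POU factors, and ACAAAG as well as ACAATG for SOX factors. The core of the CTCF motif was also searched, as CCA, 2 free bases, AG, 2 free bases and GGC, with no match in these windows.

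EPHA3 to PROS1 desert, 127 nuclei, chr3:93470525-93470675: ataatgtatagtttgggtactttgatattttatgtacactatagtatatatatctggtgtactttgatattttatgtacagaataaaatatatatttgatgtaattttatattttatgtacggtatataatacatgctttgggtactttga
desert before TPTE, 96 nuclei, chr21:6371966-6372116: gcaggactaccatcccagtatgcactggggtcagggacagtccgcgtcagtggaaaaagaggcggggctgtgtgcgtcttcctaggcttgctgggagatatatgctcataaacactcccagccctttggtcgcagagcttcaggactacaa
KCNJ18 to WSB1 desert, 53 nuclei, chr17:22521324-22521474: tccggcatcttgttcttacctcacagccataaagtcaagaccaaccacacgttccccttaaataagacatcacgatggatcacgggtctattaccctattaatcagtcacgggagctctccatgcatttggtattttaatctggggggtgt
CDH8 to CDH11 desert, 46 nuclei, chr16:63038034-63038184: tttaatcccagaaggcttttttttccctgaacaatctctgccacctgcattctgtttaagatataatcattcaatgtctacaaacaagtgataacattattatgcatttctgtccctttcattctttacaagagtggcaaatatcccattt
ERBB4 intron, 41 nuclei, chr2:211599310-211599460: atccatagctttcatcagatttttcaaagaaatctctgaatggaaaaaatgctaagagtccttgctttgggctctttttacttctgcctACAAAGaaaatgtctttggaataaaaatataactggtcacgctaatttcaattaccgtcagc
DLG2 intron, 40 nuclei, chr11:84514576-84514726: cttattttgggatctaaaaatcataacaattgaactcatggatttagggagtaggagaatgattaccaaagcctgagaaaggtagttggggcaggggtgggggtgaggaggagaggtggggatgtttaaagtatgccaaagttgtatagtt
CDH8 to CDH11 desert, 36 nuclei, chr16:63981768-63981918: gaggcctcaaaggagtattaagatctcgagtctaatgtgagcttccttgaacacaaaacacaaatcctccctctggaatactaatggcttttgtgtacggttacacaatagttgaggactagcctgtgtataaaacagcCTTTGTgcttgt
JRKL to CNTN5 desert, 34 nuclei, chr11:98068267-98068417: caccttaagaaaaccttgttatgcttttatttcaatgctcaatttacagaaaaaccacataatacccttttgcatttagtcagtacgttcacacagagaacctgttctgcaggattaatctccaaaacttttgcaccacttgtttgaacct
PCDH9 to KLHL1 desert, 34 nuclei, chr13:68996525-68996675: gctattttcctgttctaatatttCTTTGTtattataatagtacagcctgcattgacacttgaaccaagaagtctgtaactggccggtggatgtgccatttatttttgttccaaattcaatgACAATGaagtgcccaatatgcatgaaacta
RMST start, 33 nuclei, chr12:97464511-97464661: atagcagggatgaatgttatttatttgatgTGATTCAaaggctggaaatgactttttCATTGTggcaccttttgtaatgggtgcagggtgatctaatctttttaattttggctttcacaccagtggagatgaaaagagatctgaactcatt

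The first of these sequences had a GC content of 22.5% and the second of 55.6%. The RMST window carried an AP-1 match and a SOX match, the PCDH9 to KLHL1 window carried both SOX forms, and the ERBB4 window and the CDH8 to CDH11 window with 36 nuclei carried 1 SOX match each. The other windows had no match.

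Desert features were fewer than the length of the deserts would give. The deserts formed 455 intervals with 412 Mb of known sequence, 14.9% of the autosomal bases, and they held 11.98% of the autosomal features (exact 95% interval 11.8 to 12.2). Their density was 22.4 features per Mb (21.9 to 22.8) inside deserts and 28.9 per Mb (28.7 to 29.1) outside, a ratio of 0.774. Deserts also held more sequence with exact copies elsewhere. Of positions sampled every 1000 bp, 80.3% in deserts began a 50-mer that occurs once in the genome, against 92.1% elsewhere. Per Mb of such unique sequence the densities were 27.8 and 31.3, and the ratio was 0.888. Both ratios set deserts against all other sequence, gene starts included. Of the 67684 other features, 50239 were more than 10 kb from a coding start. Density over such distal sequence alone was not computed, so these ratios do not compare deserts with other distal DNA. The median desert feature was 798 kb from the nearest coding start, and the farthest was 5367 kb away. Of all desert features, 2869 (31.1%) were more than 1 Mb from any coding start. Where overlapping features were merged, 8641 separate stretches remained.

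The chromosomes differed widely. Desert features made up 23.3% of the features of chromosome 21 and 22.7% of those of chromosome 13, and 2.36% and 2.78% of those of the gene-rich chromosomes 19 and 17. Deserts made up 32.2% and 25.6% of the known bases of chromosomes 21 and 13, and 7.27% and 7.77% of those of chromosomes 19 and 17. On each of these chromosomes the share of features was thus below the share of bases. Chromosome 2 held the most, 1061 features in 41 deserts, followed by chromosome 4 with 973. The deserts of chromosome 13 had 69 recurrent features among 642 (10.7%), the highest share of the chromosomes with at least 100 desert features, while chromosome 15 had 1 among 85 and chromosome 22 had 0 among 18.

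Most desert features were seen in very few nuclei. A single nucleus held 520 of them (5.65%), and exactly 2 nuclei held 3578 (38.8%). A further 2656 (28.8%) were in 3 to 4 nuclei and 1784 (19.4%) in 5 to 9. The remaining 673 were in 10 or more nuclei, here called recurrent, which is 7.31% of desert features (6.78 to 7.86), while 11.6% of all autosomal features recurred. Outside the deserts 8214 of 67684 features recurred (12.1%). Only 93 desert features (1.01%) were open in 20 or more nuclei, against 2.00% of the others. Other features over 10 kb from a coding start reached 20 nuclei in 1.02% (0.933 to 1.11), a share that overlaps the desert interval (0.816 to 1.24). The median was 3 nuclei in both sets, and the desert maximum was 127. At the threshold, 131 desert features were in exactly 10 nuclei and 179 in exactly 9. Intervals given here are exact (Clopper-Pearson for shares, Poisson for densities) and cover counting error only, since read pairs without molecular identifiers are not independent molecules and neighbouring features can share them.

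**Figure D1:**
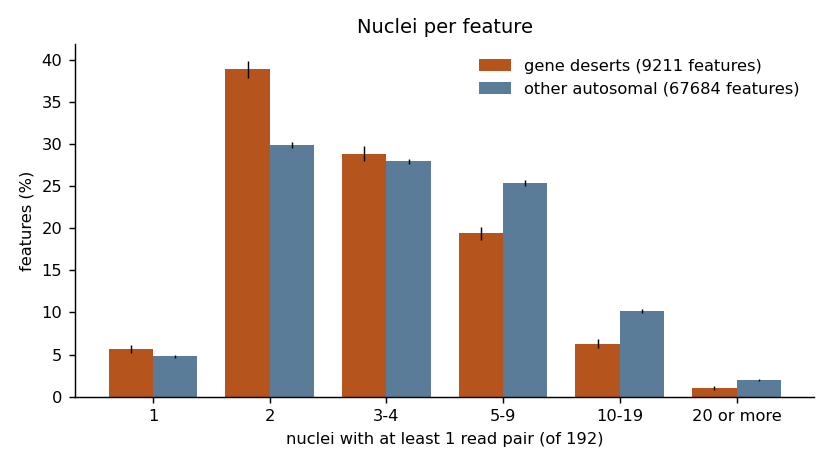
Share of features (%) by the number of nuclei, of both plates together, with at least 1 read pair, for desert features (brown) and other autosomal features (blue). Bars start at 0 and error bars are exact 95% intervals. The desert bar is higher at 2 nuclei (38.8% against 29.8%) and lower from 5 nuclei up.

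Many of the rare features were held by wells that shared features with each other. On each plate, cells 37 to 48 share many features with the cells 36 numbers higher, and cells 73 to 84 with those 12 numbers higher. Of the desert features in exactly 2 nuclei, 2618 (73.2%, 71.7 to 74.6) were in such a pair of wells, against 70.1% outside deserts, and only 219 (6.12%) had a nucleus on each plate. Once paired wells that both held a feature counted as 1 nucleus, 3146 desert features (34.2%) stood in 1 nucleus only. The recurrent set was less affected: 555 of the 673 (82.5%) still reached 10 nuclei. Without cells 37 to 48 and 73 to 96 of each plate, which leaves 120 wells, 129 desert features (1.40%) reached 10 nuclei, and 2.72% of the others did.

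Recurrence was far higher at gene starts than anywhere else, and changed little between 10 kb and the deserts. Within 1 kb of a coding start 35.2% of features recurred (34.2 to 36.2), and from 1 to 10 kb 10.6% did. Past 10 kb the share moved little: it was 8.16% from 10 to 50 kb, 8.50% from 100 to 250 kb, 7.67% from 250 to 500 kb, 7.08% (6.46 to 7.74) from 500 kb to 1 Mb and 7.81% (6.85 to 8.85) beyond 1 Mb. All features outside deserts and more than 10 kb from a start recurred at 8.12% (7.88 to 8.36), so the desert share of 7.31% was slightly below theirs and the intervals did not overlap. GC content fell over the same distances, from a median of 61.5% within 1 kb to 36.1% beyond 1 Mb. Within the deserts, recurrent features were as AT-rich as the rest, with a median GC of 36.4% against 36.7% for all desert features.

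**Figure D2:**
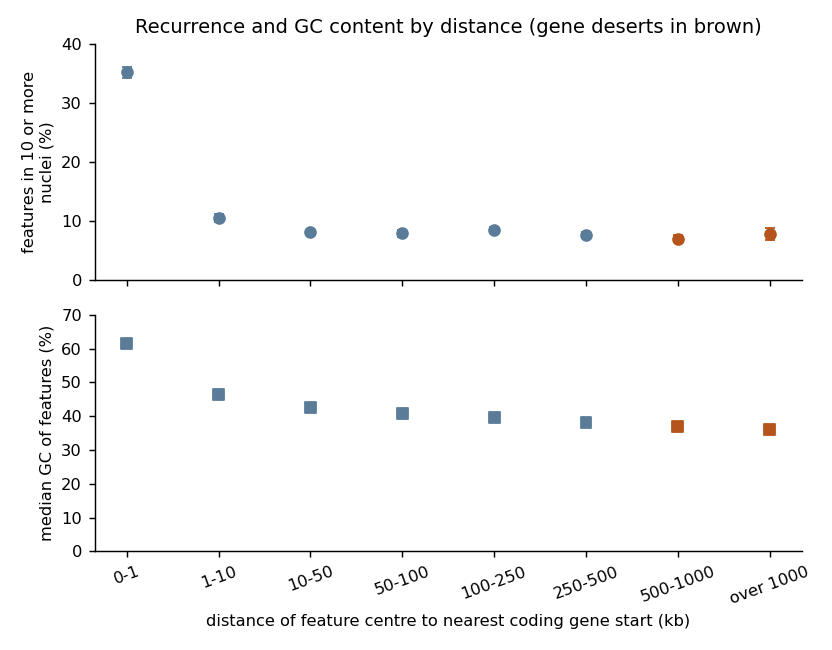
Upper panel: share of features (%) seen in 10 or more nuclei against distance of the feature centre to the nearest protein-coding gene start (kb), with exact 95% intervals. Lower panel: median GC content (%) of the same features. Desert classes are brown. Recurrence drops from 35.2% to 8.16% by 10 to 50 kb and stays between 7.08% and 8.50% after that, while GC content keeps falling.

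Nearly all recurrent desert features were shared by the plates, which the threshold largely fixes. A feature in 10 or more nuclei of 1 pool would seldom miss a plate. Nuclei on both plates were found for 671 of 673, and the median share of their nuclei on plate 1 was 50%. The exceptions were chr13:62792182-62793182, open in 10 nuclei of plate 1 and 0 of plate 2, and chr16:60274369-60275369, open in 0 nuclei of plate 1 and 11 of plate 2. With paired wells counted as 1 nucleus, the chromosome 13 feature stayed at 10 nuclei and the chromosome 16 feature had 8. Recurrence lay in 209 of the 455 deserts, and 409 deserts held a feature of any kind.

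The first 2 features stood apart from the rest, with 127 and 96 nuclei, while the third had 53 and the fourth 46. The first, chr3:93470100-93471100, lay in no annotated gene, 4363 kb past the start of EPHA3 (an ephrin receptor) and 509 kb before the start of PROS1 (the anticoagulant protein S). It was open in 64 of 96 nuclei of plate 1 and 63 of 96 of plate 2, 127 in all (66.1%, 58.98 to 72.8), with 576 read pairs, or 4.54 per open nucleus. Of 10 of its 50-mers that could be read, 5 occurred more than once in the genome, the most frequent 625 times. Its GC content was 27.3%, and with paired wells merged it was open in 98 nuclei.

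The second, chr21:6371541-6372541, lay on the short arm of chromosome 21, 4.72 kb from a gap in the assembly and 4150 kb before the start of TPTE. It was open in 45 nuclei of plate 1 and 51 of plate 2, with 266 read pairs, or 2.77 per open nucleus. All but 1 of its 11 50-mers occurred more than once, each at most 2 times. An overlapping neighbour, chr21:6372525-6373525, had 12 nuclei and also 10 repeated 50-mers.

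The third, chr17:22520899-22521899, lay 829 kb from the start of KCNJ18 and 4773 kb from that of WSB1, beside the centromere of chromosome 17. It was open in 28 nuclei of plate 1 and 25 of plate 2, with 1.47 read pairs per open nucleus. None of its 50-mers was repeated, but its bases 16 to 957 aligned to the mitochondrial genome at 77.2% identity (blastn). Only 7 of the 9211 desert features had such an alignment of at least 100 bp, and this was the only recurrent one of them. The others were open in 2 to 5 nuclei. Whether mitochondrial or other copies supplied read pairs to these 3 features was not tested.

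By exact copies of 50-mers, repeated sequence was no more frequent in the recurrent set. Copies that differ by some bases were not counted, and no repeat annotation was used. At least 6 of 11 50-mers were repeated in 14 of the 673 recurrent features (2.08%, 1.14 to 3.47) and in 2.02% of all desert features. No repeated 50-mer was found in 602 recurrent features (89.5%, 86.9 to 91.7), a larger share than the 83.5% (82.7 to 84.3) of all desert features, and of the desert features without any, 7.83% recurred. Beyond the first 2 features, the other 18 of the 20 seen in most nuclei had no repeated 50-mer, between 28 and 53 nuclei, and 1.17 to 1.61 read pairs per open nucleus.

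**Figure D3:**
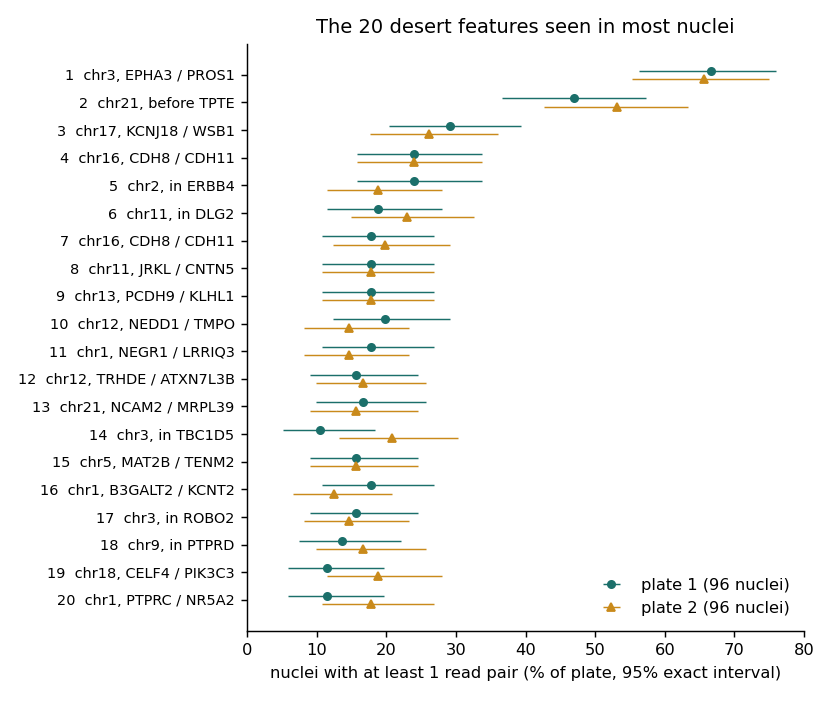
The 20 desert features seen in most nuclei, in order, labelled with the coding gene they lie in or the coding genes whose starts flank them. Points give the share of the 96 nuclei of each plate with at least 1 read pair (%), and lines are exact 95% intervals. The first 2 features reach 46.9% to 66.7% of a plate, the others stay below 30%, and the intervals of the 2 plates overlap for each feature.

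Genes of cell adhesion flanked several of the next features, which is common in deserts. Of all desert features, 22.1% were nearest to a start in a list of adhesion and synaptic genes, described below. The desert between CDH8 and CDH11, which encode cadherins, held 2 of the 20. At chr16:63037609-63038609 there were 23 open nuclei on each plate, 46 in all, with 74 read pairs. At chr16:63981343-63982343 there were 17 on plate 1 and 19 on plate 2, with 49 read pairs. At chr13:68996100-68997100, each plate had 17 open nuclei. This feature lay between the protocadherin gene PCDH9 and KLHL1, 1766 and 1112 kb from their starts, so KLHL1 was the nearer. The counts of the plates were thus close for all 3. At chr11:98067842-98068842, 953 kb before the start of CNTN5 (contactin 5), each plate also had 17. At chr21:21712347-21713347, 714 kb past the start of the neural adhesion gene NCAM2, 16 and 15 nuclei were open.

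Of the 20, 4 lay in introns of very long genes, deep inside the gene. The feature chr2:211598885-211599885 in ERBB4, a receptor tyrosine kinase for neuregulins, was open in 23 nuclei of plate 1 and 18 of plate 2 and lay 939 kb from the gene start. The feature chr11:84514151-84515151 in DLG2, a scaffold protein of synapses, was open in 18 and 22 nuclei. In the axon guidance receptor gene ROBO2, chr3:77051812-77052812 was open in 15 and 14, and in the receptor phosphatase gene PTPRD, chr9:9318586-9319586 was open in 13 and 16. These counts fell in the range of the intergenic features of the 20.

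Another 2 of the 20 sat on the start of a noncoding gene. At chr12:97464086-97465086 the feature covered a start of RMST, a long noncoding RNA known from neural differentiation, and was open in 19 nuclei of plate 1 and 14 of plate 2. At chr3:17742349-17743349 the feature covered the start of the noncoding gene ENSG00000286352 together with an exon and an internal transcript start of TBC1D5, a regulator of vesicle transport, 702 kb from the start of that gene. It was open in 10 and 20 nuclei, and with a GC content of 60.1% and 67 CpG sites it was the only GC-rich feature of the 20 besides the one on chromosome 21. Its plate intervals, 5.11 to 18.3% and 13.2 to 30.3%, overlapped.

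The other features of the 20 were intergenic or inside noncoding transcripts. They were chr1:73206540-73207540 between NEGR1 and LRRIQ3 (17 and 14 nuclei), chr12:72729512-72730512 between TRHDE and ATXN7L3B (15 and 16), and chr5:165616780-165617780 between MAT2B and TENM2 (15 and 15). On chromosome 1, chr1:195745135-195746135 between B3GALT2 and KCNT2 had 17 and 12 nuclei, and chr1:199155216-199156216 in LINC02789 had 11 and 17. On chromosome 18, chr18:38886628-38887628 between CELF4 and PIK3C3 had 11 and 18.

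Most desert features lay outside genes. No gene covered the centre of 5324 of them (57.8%), a noncoding gene alone covered 2328 (25.3%), and a protein-coding gene covered 1559 (16.9%, 16.2 to 17.7). Outside deserts 52.6% were within coding genes. The rule leaves out every coding gene up to 500 kb long, so a lower share in deserts was built in. Recurrent desert features were divided in much the same way: 56.3% in no gene, 22.7% in a noncoding gene alone and 20.95% in a coding gene. Inside coding genes 9.04% of desert features recurred (7.67 to 10.6), and outside them 6.95% (6.39 to 7.55). Coding exons were rare, with 105 desert features (1.14%), and 36 covered an internal transcript start of a coding gene.

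The 129 coding genes that held desert features are among the longest of the genome, which the rule itself requires. A centre over 500 kb from the start of its own gene can only lie in a gene over 500 kb long. PTPRD, 2299 kb long, held the most, 72 features of which 14 recurred. CSMD1, which encodes a large membrane protein, held 58 with 4 recurrent, DLG2 50 with 4 recurrent, CNTNAP2 (a neurexin-family adhesion protein) 48 with 7 and GPC5 (a glypican) 41 with 4. In a list of 81 autosomal adhesion and synaptic genes, 39 held desert features, 742 of the 1559, of which 79 recurred (10.6%). Many genes of this list are very long, so its part of the 1559 follows at least partly from the choice of genes. The start nearest to a desert feature belonged to this list for 2038 features (22.1%) and for 177 of the recurrent ones (26.3%). The list is 0.424% of the 19103 autosomal coding genes, but genes flanked by deserts are nearest to many features by position alone, so this is a description. The cadherin genes PCDH7 and CDH8 were nearest to the most features, 89 with 5 recurrent and 87 with 12 recurrent. For 130 developmental transcription factors the nearest-start share was 4.36% (402 features), and 15 of the 402 recurred (3.73%, 2.10 to 6.08), beside 7.31% of all desert features and 8.68% (7.50 to 9.99) of those nearest to the adhesion and synaptic list.

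Desert features over noncoding starts recurred more often than the rest. A transcript start of a noncoding gene fell inside 174 desert features (1.89%), and 25 of them recurred (14.4%, 9.52 to 20.5), against 7.17% (6.65 to 7.72) of those without one. Outside deserts and more than 10 kb from a coding start, the same 2 values were 19.2% and 7.75%. After RMST and ENSG00000286352 the widest was the start of PTGER4P2, a pseudogene, in 20 nuclei, 6 of whose 11 50-mers were repeated. Next came LINC01515 and MIR99AHG with 15 nuclei each. MIR99AHG is the host gene of a microRNA cluster on chromosome 21, and 7 nuclei of plate 1 and 8 of plate 2 were open at its start.

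Sequence motifs were then counted in the base pairs within 100 bp of the feature centre, comparing recurrent desert features with those in 1 or 2 nuclei. Median GC contents were close, at 36.4% for the recurrent features, 37.4% for those in 1 nucleus and 36.7% for those in 2. The octamer and SOX forms were picked because their letters were frequent in the recurrent desert features themselves, so their values in deserts are a description and the features outside deserts more than 10 kb from a start, which were not used for the choice, stand beside them. The octamer was in 7.28% (5.43 to 9.51) of recurrent desert features and in 2.46% (2.01 to 2.99) of the rare ones. Outside deserts the values were 6.35% (5.62 to 7.14) and 2.33% (2.12 to 2.54). ACAAAG was in 32.5% and 18.96% in deserts, and in 27.8% and 17.6% outside. ACAATG was in 24.8% and 14.9%, and in 21.5% and 13.2%. The same difference by recurrence thus appeared in both sets. POU and SOX factors often bind side by side in stem cells and developing tissues, and a match of letters does not show that either was bound here.

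TEAD, AP-1 and GATA motifs were compared in the same way. TEAD matches were in 5.79% (4.15 to 7.84) of recurrent desert features and in 3.00% (2.50 to 3.57) of the rare ones, while outside deserts the values were 3.97% and 3.02%. AP-1 matches were in 10.1% and 7.69% in deserts and in 8.90% and 6.78% outside. GATA matches were in 19.02% (16.1 to 22.2) and 18.6% (17.4 to 19.8) in deserts, and in 12.5% (11.5 to 13.6) and 14.1% (13.7 to 14.6) outside, where the rare features had the larger share. Among all autosomal features, windows of this length held AP-1 matches in 6.97%, TEAD in 3.23%, GATA in 12.8%, the octamer in 3.13%, ACAAAG in 19.2%, ACAATG in 14.1% and the CTCF core in 2.36%.

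The CTCF core was most frequent in features of middling recurrence. CTCF is the factor that anchors chromatin loops. Within 100 bp of the centre, its core was in 3 of the 673 recurrent desert features (0.446%, 0.0920 to 1.30), in 1.82% (1.45 to 2.26) of those in 3 to 9 nuclei and in 0.537% (0.337 to 0.812) of those in 1 or 2, so the recurrent and the rare ones did not differ beyond counting error. Outside deserts and away from starts the values were 1.32% (0.996 to 1.72), 3.70% (3.47 to 3.94) and 1.05% (0.910 to 1.19). Over the whole feature, the core was in 1.49% (0.715 to 2.72), 3.49% (2.97 to 4.07) and 1.83% (1.44 to 2.29) in deserts, and in 4.90% (4.26 to 5.61), 7.49% (7.17 to 7.82) and 3.61% (3.36 to 3.87) outside, where recurrent features thus had it more often than rare ones. All autosomal features had it in 5.76% over this length.

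**Figure D4:**
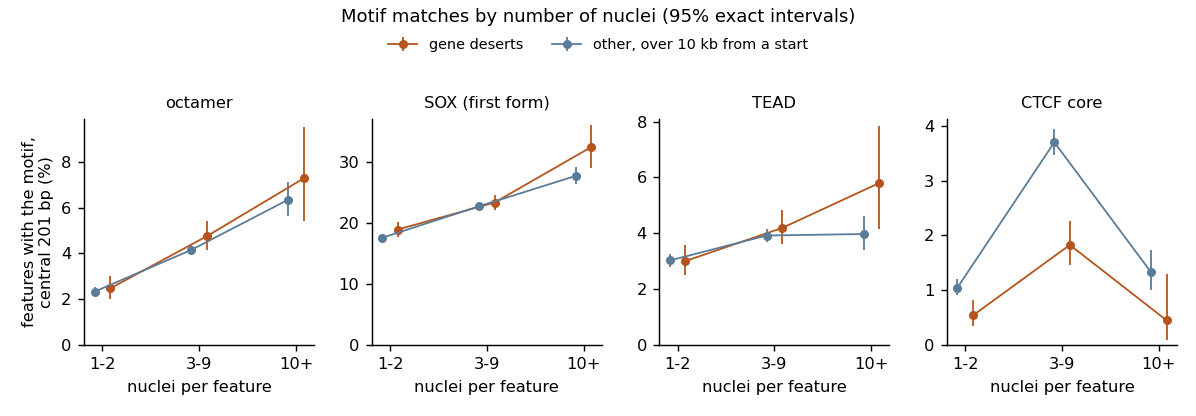
Share of features (%) with a motif match on either strand within 100 bp of their centre, by number of nuclei per feature (1 to 2, 3 to 9, 10 or more), for desert features (brown) and other autosomal features over 10 kb from a coding start (blue). Bars are exact 95% intervals and the SOX panel shows the ACAAAG form. Octamer and SOX shares climb with the number of nuclei in both sets, to 7.28% and 32.5% in deserts, and CTCF peaks at 3 to 9 nuclei.

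The deserts themselves were very unequal. Among the 143 of at least 1 Mb of known sequence the median density was 26.02 features per Mb, and 4 had no feature. The longest by known sequence, chr18:15228273-20611812 between ANKRD30B and ROCK1, held 0 features, and 4.62% of its sampled positions were unique. The next longest, chr7:57950178-63498848 between ZNF716 and ZNF722, held 44 features, none of them recurrent, and 28.1% of its positions were unique. The desert chr17:22192524-26794075 held 12 features, of which the one like the mitochondrial genome was the only recurrent one. All 3 lie across centromeres.

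By count, the leading deserts were chr2:58741411-60054466 between FANCL and BCL11A (112 features, 4 recurrent), chr4:177942438-181643986 between AGA and TENM3 (108 features, 12 recurrent) and chr1:187328950-189978403 between PLA2G4A and BRINP3 (102 features, 14 recurrent), which tied with chr4:31220370-35744513 between PCDH7 and ARAP2 (102 features, 6 recurrent). The densest of at least 1 Mb were the same FANCL to BCL11A desert with 85.3 features per Mb, then chr3:117639390-118646067 between LSAMP and IGSF11 with 45.7, and chr3:20686207-21873320 between SGO1 and ZNF385D with 44.6.

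A pair of wells was open at many features of the FANCL to BCL11A desert. BCL11A encodes a transcriptional repressor of fetal globin genes and FANCL a ubiquitin ligase of the Fanconi anaemia pathway. Cell 83 of plate 1 was open at 70 of the 112 features and cell 95 of the same plate, its paired well, at 50, of which 48 were shared. The next nucleus was open at 13, and the median of the others was 0. Cell 83 had 862 open autosomal features in all, so 8.12% of them were in this desert, all within 0.631 Mb, and 216 of its 1156 read pairs fell there. In each of the 1 Mb windows up to 8 Mb to either side, this nucleus was open at 2 features or fewer. Without these 2 nuclei, 58 of the 105 features seen in more than 1 nucleus still were, 44.2 per Mb, and 4 remained recurrent. Counted the same way without their own 2 leading nuclei, the LSAMP to IGSF11 desert had 31.8 per Mb and the SGO1 to ZNF385D desert 40.4. The FANCL to BCL11A desert was ahead of both in this count. Peaks were called on all nuclei together, however, so features that the leading nuclei helped to call remained among those counted. The density without these nuclei in the peak calling was not tested.

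The ZNF716 to ZNF722 desert of chromosome 7 also had a leading pair of wells. Cell 47 of plate 2 was open at 30 of its 44 features and cell 83 of plate 2, its paired well, at 22, of which 21 were shared, while the next nucleus was open at 2. The run was a smaller part of its nucleus than on chromosome 2: 0.490% of the 6124 open autosomal features of cell 47, over 2.65 Mb. Among 156 deserts with at least 20 features, only the FANCL to BCL11A and ZNF716 to ZNF722 deserts had over 50% open in a single nucleus. The median of the highest nucleus was 22.8%. The LSAMP to IGSF11 desert was next at 50%, with 23 of 46 features in cell 44 of plate 2 and 15 in cell 80, again a pair of wells. The cause of these local runs was not tested.

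**Figure D5:**
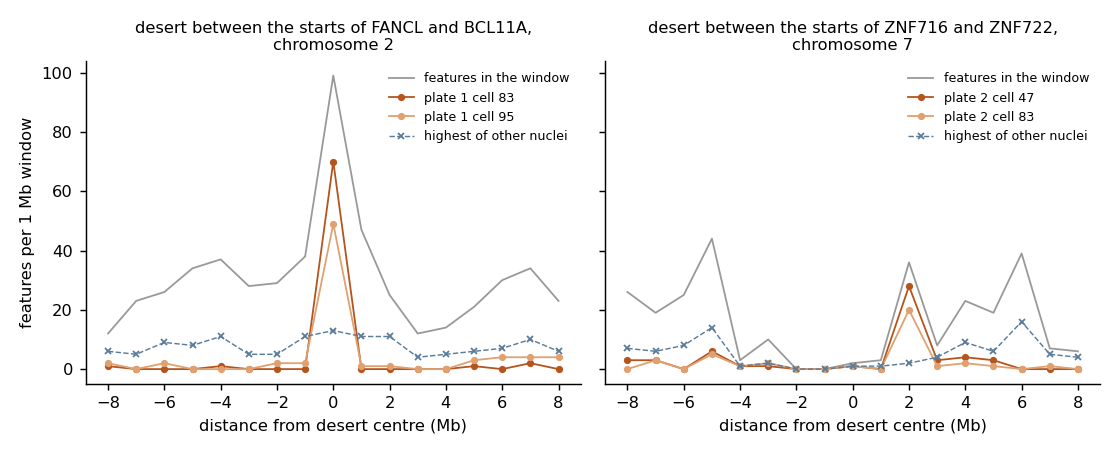
Features per 1 Mb window (y axis) against distance from the desert centre (Mb) for the 2 deserts in which 1 nucleus was open at over 50% of the features. The grey line counts all features, brown lines those open in the leading nucleus and its paired well, and blue crosses the highest of all other nuclei. On chromosome 2 the leading nucleus reaches 70 features in the central window and at most 2 in the others; on chromosome 7 it reaches 28 in the window 2 Mb from the centre.

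Per nucleus, deserts took up a similar share on both plates. After the filters of the study (features in more than 1 nucleus, nuclei with more than 300 of them), 83 nuclei of plate 1 and 79 of plate 2 remained. Desert features made up 10.2% of open autosomal features on plate 1 (10.0 to 10.3) and 9.64% on plate 2 (9.50 to 9.77). The nuclei had 26 to 1206 open desert features on plate 1, with a median of 174, and 23 to 923 on plate 2, with a median of 158. Their share in deserts ran from 6.11% to 18.4% with a median of 10.3% on plate 1, and from 5.28% to 17.5% with a median of 9.40% on plate 2. The highest nucleus was cell 83 on each plate, the nuclei named above. Among recurrent features only, the share in deserts was 7.53% on plate 1 and 7.31% on plate 2.

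The groups of wells differed somewhat in this measure. Cells 73 to 84 had the highest median share, 12.3% on plate 1 and 11.4% on plate 2, and cells 37 to 48 had 10.8% and 10.3%. Cells 85 to 96, also paired wells, had 10.2% and 9.54%, close to the unpaired cells 49 to 72 with 9.93% and 9.15% and cells 1 to 36 with 9.57% and 9.15%. Cells 73 to 84 were also the deepest, with medians of 3523.5 and 3328 read pairs against 1509 to 2883 in the other groups, and the part of depth in these shares was not tested. Outside cells 37 to 48 and 73 to 96, the plate shares were 9.19% (9.01 to 9.38) and 8.76% (8.55 to 8.97). Thinned to 600 read pairs, 73 nuclei per plate could be compared, and the shares were 10.6% and 9.84%. A difference of less than 1 percentage point between the plates therefore appeared in each form, and with 1 sample per plate it could not be tested.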

How the data were processed

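Plate-based snATAC-seq counts of HAP1 nuclei from 2 plates of 96 were used. The authors trimmed reads (fastp), aligned them to hg38 (bowtie2), removed mitochondrial reads, reads of mapping quality under 20 and duplicates (Sambamba, per cell), called peaks on all cells together (MACS2), widened each summit by 500 bp and counted read pairs per feature and cell (featureCounts 1.6.0, per the file headers). The deposited values are raw counts without normalization, in which a read pair can enter several overlapping features. Peaks called on the pool are the same for both plates, and removing duplicates per cell leaves a molecule read in several wells in each of them. All columns were matched to a nucleus (0 unmatched).

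Counts were binarized. Gene starts and gene bodies came from GENCODE 44, and distances ran from the feature centre. Sequence was read from hg38, 11 50-mers per feature were counted on both strands of the assembly without alternate haplotypes, and alignments to the mitochondrial genome used blastn 2.17.0 with at least 100 bp. The 20 features seen in most nuclei were named, with the 3 longest, 3 fullest and 3 densest deserts, and neighbouring nuclei or features are not replicates, so no test was made. Features named for lying on 1 plate, aligning to mitochondrial DNA, overlapping a named one or covering a noncoding start, the genes named for holding or adjoining most features, and the deserts named for a single nucleus were chosen after their values were seen. Members, gene lists and motifs were chosen with earlier results of these data known. The functions were tested on simulated data. No doublet caller was run, since nuclei were sorted 1 per well. The analysis ran in Python 3.11.15 with pysam 0.24.0, numba 0.67.0, SciPy 1.17.1 and pandas 2.3.3.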

Additional observations from a re-analysis of the deposited data

How the results depend on the processing

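Of 54 recomputed values of the main results, 24 stayed within the 1.5-fold or interval set for them, and all 40 recounts of the 20 named features, over passing nuclei or with paired wells merged, stayed within 1.5 times. No paired analysis was possible because the result comes from no test. At a distance of 250 kb there were 18509 desert features (24.1% of autosomal features) and at 1 Mb 2869 (3.73%), with a density ratio of 0.620 and 224 recurrent features, and 11.7% of the others recurred. With the starts of every coding transcript, 8.59% of features were in deserts. Per unique 50-mer position, chosen after seeing the data, the density ratio was 0.888. At 5 or more nuclei there were 2457 recurrent features (26.7%, others 37.5%), and at 20 or more 93 (1.01%, others 2.00%). With paired wells counted as 1, 6.03% recurred (others 10.4%). Without cells 37 to 48 and 73 to 96 there were 129 (1.40%, others 2.72%), with fewer nuclei by construction, and desert shares per plate of 9.19% and 8.76%. Other features over 10 kb from a start, also chosen after seeing the data, recurred at 8.12%. Thinning gave plate shares of 10.6% and 9.84%, and features in 10 or more nuclei 7.53% and 7.31%. The CTCF core was in 0.446% (within 100 bp of the centre) or 2.97% (5 or more nuclei). A noncoding start lay within 1 kb of the centre of 3.08%. Desert features recurred less often than the others under each alternative that recounted both. Density over bases outside repeats was not run, since the reference used here is not masked. Depth limits what is seen, since a nucleus with few read pairs misses most features.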

Other observations

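The deserts of the X chromosome, found by the same rule but left out of the autosomal set, held 393 of the 4075 features of that chromosome. Of these, 38 recurred (9.67%, exact 95% interval 6.93 to 13.03), and the widest was open in 32 nuclei.

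Features open in a single nucleus had more read pairs per open nucleus than those shared by a few: 2.91 in deserts and 3.03 elsewhere, against 1.17 and 1.23 for features in 2 nuclei. In deserts the value was 1.14 for features in 5 to 9 nuclei and 1.52 for those in 20 or more. Peaks were called on all nuclei together, so a feature in 1 nucleus had to gather all its read pairs there. The higher value of such features thus follows at least partly from peak calling.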
